A study of Arabidopsis thaliana with 39 samples.

Results

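The aquaporin family of Arabidopsis thaliana was taken as 35 genes, chosen by their locus identifiers, out of the 32678 genes listed for each library. It held 5 PIP1 and 8 PIP2 genes, named for the plasma membrane, 10 TIP genes, named for the tonoplast around the vacuole, 9 NIP genes, named for the nodulin 26 protein of soybean, and 3 SIP genes, the small basic intrinsic proteins. Names are written with a hyphen, so that PIP2-4 stands for the fourth gene of the PIP2 group.

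Aquaporins are channel proteins that sit in membranes as tetramers and let water, and in some members small uncharged solutes, pass down a gradient. PIP proteins of the PIP2 group carry water across the plasma membrane and help PIP1 proteins to reach it, TIP proteins do so at the vacuole, NIP proteins include channels for boric acid, arsenite and lactic acid, and SIP proteins lie in the endoplasmic reticulum. In roots the PIP proteins set much of the water conductance between cells, and salt is known to lower that conductance.

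The libraries were made from poly(A)-selected RNA of whole seedlings, 5 days old and grown on solid half-strength MS medium, and fall into 12 groups of 3, one for each of 4 genotypes under each of 3 treatments. Plants were wild type (WT), a mutant of the glyoxalase I gene GLYI2 (glyI2), or 1 of 2 single lines whose labels read 35S::GLYI2 35S::GLYII4 #1 and #5, written here OE1 and OE5. The 35S promoter is a viral promoter that is active in most plant cells, and glyoxalases I and II together remove methylglyoxal (MG), a reactive by-product of glycolysis. Each genotype was left untreated (mock), or was given 100 mM NaCl for 12 h or 200 µM MG for 12 h.

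Libraries held between 21024878 and 22383131 counts. In 7 libraries the morning clock gene CCA1 stood between -2.43 and 1.02 log2 CPM, against 4.24 to 6.30 in the other 29. They were replicate 3 of WT NaCl and of the mock and NaCl groups of glyI2, OE1 and OE5. In mock the targeted gene GLYI2 measured 61.3 ± 8.23 CPM in WT, 7.93 ± 2.25 in glyI2, and only 28.1 ± 6.98 and 51.3 ± 6.72 in the libraries labelled OE1 and OE5 (SD, n = 3). GLYII4 was at 31 ± 4.08 and 32.1 ± 5.99 CPM in these, against 10.7 ± 1.53 in WT. Counts at the GLYII4 locus were thus raised in both lines and those at the GLYI2 locus were not. At GLYI2 the log2 difference from WT was -1.13 in OE1 (edgeR adjusted p = 0.0358), a lower level. In OE5 it was -0.26 (adjusted p = 0.963). Whether RNA of the transgenes is counted at these loci is not known. After MG GLYII4 stood at 300.0 ± 74.3 CPM in OE1 and 265 ± 91 in OE5, 9.68-fold and 8.27-fold over mock, against 11.7 ± 1.75 in WT. None of the 19 root and 13 shoot markers was at 0 in a whole group. The summed level of the root markers ran from 129 to 142 CPM in WT mock, 81.7 to 112 in WT NaCl and 43.5 to 46.2 in WT MG, and that of the shoot markers from 196 to 204, 155 to 213 and 196 to 265.

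Vacuolar and plasma membrane aquaporins made up nearly all of the family's RNA in untreated wild type. Levels between genes are compared in FPKM, the authors' values scaled by gene length and library depth. TIP1-2 (AT3G26520) was highest, at 1930 ± 179 FPKM (SD, n = 3), and stood at rank 42 among all genes. TIP2-1 (AT3G16240), a channel for water and ammonia, followed at 1490 ± 306 FPKM, and its range overlapped that of TIP1-2. PIP2-1 (AT3G53420), a main water channel of root and guard cell membranes, was at 1240 ± 95.1 FPKM, PIP1-2 (AT2G45960) at 1030 ± 41.3 and TIP1-1 (AT2G36830) at 833 ± 48.6. The libraries of TIP2-1 and PIP2-1 overlapped, while those of PIP2-1, PIP1-2 and TIP1-1 did not.

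The order went on with PIP2-7 at 704 ± 113 FPKM, PIP1-3 at 640 ± 15.4, PIP2-6 at 362 ± 42.4, PIP1-1 at 309 ± 10.2 and PIP1-5 at 287 ± 11.2. These 10 genes held 90.4% of the FPKM of the family. PIP2-2, PIP1-4 and TIP2-2 lay between 158 and 255 FPKM. Another 13 genes, SIP1-1, PIP2-3, PIP2-8, PIP2-4, TIP2-3, SIP2-1, NIP1-1, TIP4-1, NIP1-2, PIP2-5, NIP5-1, NIP6-1 and SIP1-2, ranged from 76.9 ± 6.08 FPKM down to 4.91 ± 0.478. By subfamily, TIP genes held 45.7% of the FPKM of the family, PIP2 genes 27.7%, PIP1 genes 25%, SIP genes 1.09% and NIP genes 0.546%.

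The lowest members, among them genes known from seeds, pollen and anthers, were near or at 0 in these seedlings. NIP3-1 was at 1.91 ± 0.311 FPKM in WT mock, and NIP7-1, NIP2-1, NIP4-2 and TIP3-1 were between 0.208 and 0.409 FPKM. TIP3-2, TIP1-3 and TIP5-1 had at most 7, 3 and 1 counts in any library, and NIP4-1 (AT5G37810) had no count in any of the 36 libraries. A count of 0 allows up to 0.134 to 0.143 CPM per library, or 3 counts, and covers counting error only. These 4 genes did not pass the expression filter, so that 31 of the 35 aquaporins were tested. TIP3-1, NIP2-1, NIP4-2 and NIP7-1 were tested but had at most 30, 34, 21 and 37 counts in a library, so their fold changes are imprecise.

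**Figure D1:**
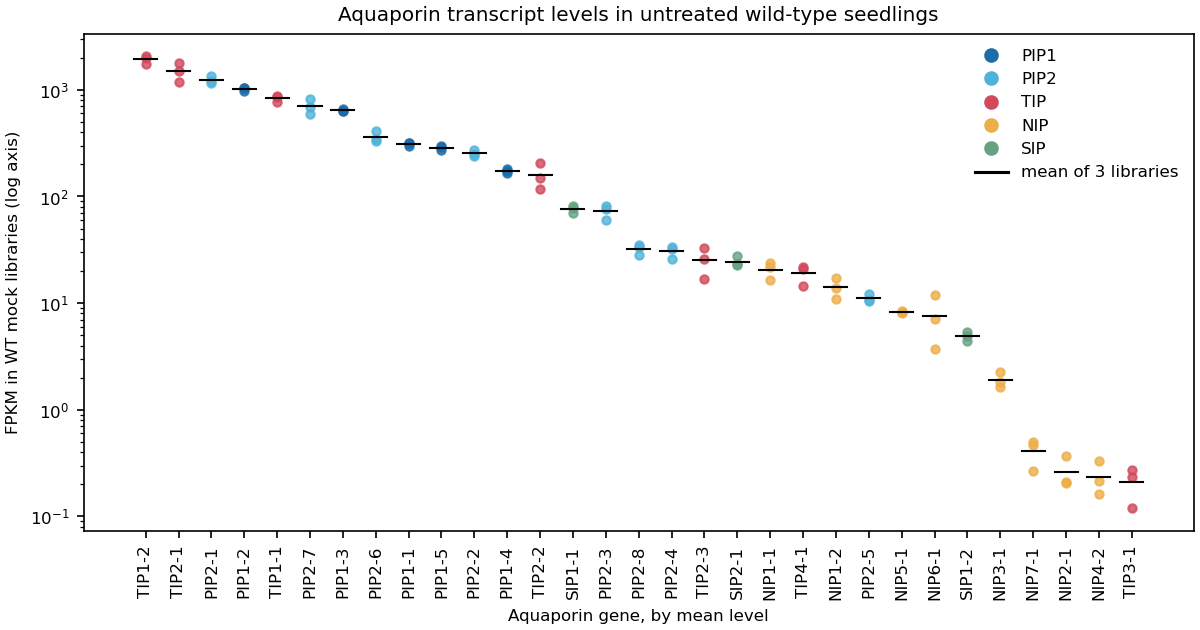
FPKM on a log axis of the 31 tested aquaporins in the 3 WT mock libraries (points, coloured by subfamily) with their mean (bars). TIP1-2, TIP2-1, PIP2-1 and PIP1-2 have means above 1000 FPKM, and 4 genes of the NIP and TIP groups lie below 1 FPKM.

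Within a group, libraries differed least for SIP1-1, a channel of the endoplasmic reticulum, with a median coefficient of variation of 6.93% in FPKM, and PIP1-4 followed at 9.44%. TIP3-1 varied most among the tested genes, at 47.8%. The first glyI2 mock library held the highest FPKM of all 36 libraries for 13 of the 31 tested aquaporins, and a glyI2 MG library held the lowest for 12. Of all 20748 genes tested, 1.4% had their highest FPKM in that mock library and 9.1% their lowest in a glyI2 MG library. TIP2-1 ran from 193 FPKM in a glyI2 MG library to 2160 in that glyI2 mock library.

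The libraries with low CCA1 carried less RNA of many aquaporins. Relative to the other libraries of their groups, all 7 were lower for 13 of the 31 tested aquaporins, 8 of them PIP genes, and all 7 were higher for 1, SIP2-1. Of all genes tested, 15.1% were lower in all 7 and 17.5% higher. The median difference was -1.57 log2 for PIP1-5, -1.22 for PIP2-1, -1.14 for PIP1-3, -1.11 for PIP1-1 and -0.96 for PIP1-2. Of the rest of the 13, it was -1.30 for TIP2-3, -1.06 for PIP2-3, -0.94 for NIP6-1 and -0.90 for TIP2-1. For the last of the 13 it was -0.71 (PIP2-6), -0.54 (PIP2-4), -0.52 (NIP1-2) and -0.45 (TIP3-1). It was 0.23 for TIP1-1, 0.05 for SIP1-2 and 0.00 for NIP1-1. The labels give no harvest time, and the part of the clock in these values was not tested.

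The mean share of the aquaporin family in all FPKM was lowest after MG in every genotype. In WT it was 1.19%, 1.20% and 1.28% in the mock libraries, 0.964%, 1.20% and 0.892% after NaCl, and 0.757%, 0.912% and 0.795% after MG. Every WT MG library lay below every mock library, while the NaCl libraries overlapped them. In glyI2 the share was 1.51%, 1.04% and 0.986% in mock and 0.582%, 0.622% and 0.542% after MG, again without overlap. The log2 ratio of MG to mock was -0.58 in WT, -1.0 in glyI2, -0.47 in OE1 and -0.37 in OE5. An exact two-sided permutation test gave p = 0.1 for each, which is the smallest p that 3 against 3 libraries allow, and 0.2 after Benjamini-Hochberg adjustment over 8 comparisons. After NaCl the ratios were -0.28, -0.19, -0.21 and -0.14, with exact permutation p between 0.2 and 0.6.

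Most of the loss in FPKM fell on the vacuolar members. The summed FPKM of TIP genes was 4460 in WT mock, 3420 in WT NaCl and 2620 in WT MG. In glyI2 it was 4650, 3420 and 1440. PIP2 genes summed to 2710, 2160 and 2050 in WT and to 2410, 2270 and 1510 in glyI2. PIP1 genes summed to 2440, 2180 and 1750 in WT and to 2020, 2160 and 1440 in glyI2. These sums were not tested. SIP genes stayed between 106 and 129 in all 12 groups.

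**Figure D2:**
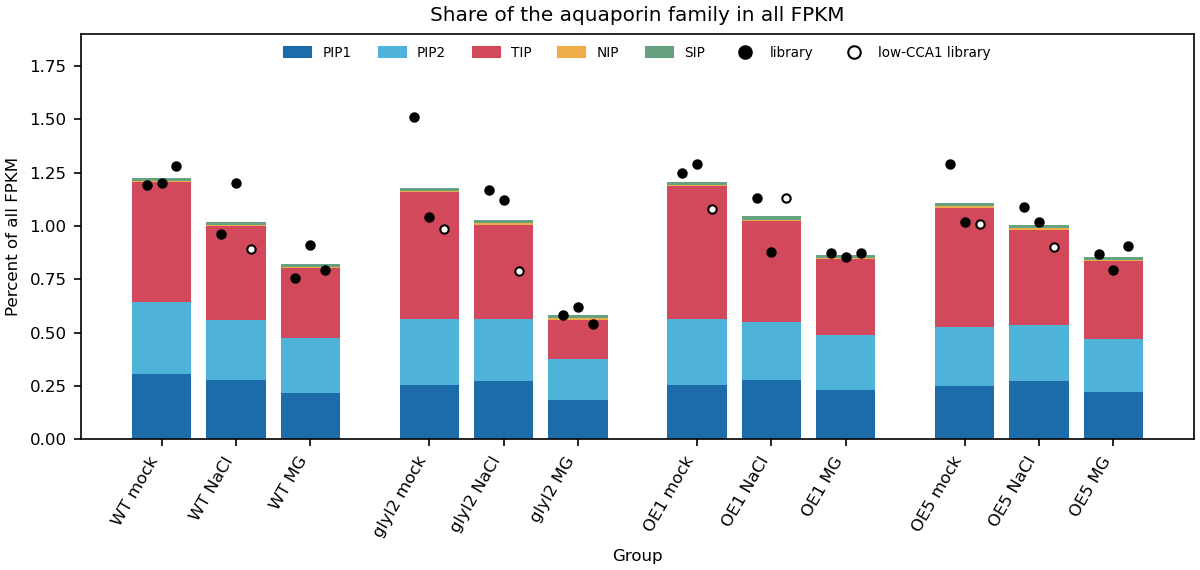
Percent of all FPKM held by the aquaporin family in the 12 groups. Stacked bars give the group mean by subfamily, filled points the libraries and open points the low-CCA1 libraries, and the glyI2 MG libraries sit lowest, from 0.542% to 0.622%.

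After NaCl few aquaporins passed the test in any genotype. Changes within a gene are given in CPM, counts scaled to library size by the TMM method, with a call at an edgeR adjusted p under 0.05 over all 20748 genes tested, and the NaCl and MG comparisons of a genotype share its mock libraries. In WT 2 of 31 rose and 2 fell, where 4.43% of all genes rose and 2.69% fell. In glyI2 2 rose and 1 fell, beside 4.45% and 2.59% of all genes. In OE1 1 rose and 2 fell, beside 2.98% and 2.35%, and in OE5 2 rose and 2 fell, beside 3.24% and 2.23%. The median log2 change of the 31 aquaporins after NaCl was -0.12 in WT, 0.09 in glyI2, -0.21 in OE1 and -0.13 in OE5, and that of all genes lay between -0.051 and 0.008. The number of aquaporins called was 2 in WT without any 1 mock library, 1 in OE1 without replicate 2 of mock or any 1 NaCl library, 1 in OE5 without replicate 1 of mock, and 2 in OE5 without replicate 2 of mock or any 1 NaCl library. In glyI2 a fit on the compared groups alone called 0, and the replicate block called 5 in glyI2 and in OE1. That fit called 1.1% of all genes in glyI2, and the block 10.7% in glyI2 and 8.61% in OE1. Without these changes 7.05% were called in glyI2 and 5.33% in OE1.

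After MG the calls in WT were 2 up and 4 down, beside 6.42% and 4.26% of all genes. OE1 also had 2 up and 4 down, beside 5.85% and 3.94%, and OE5 had 2 up and 4 down, beside 4.74% and 4.09%. In glyI2 3 rose and 10 fell, beside 14.4% and 14.8%. The median log2 change of the aquaporins was -0.31 in WT, -0.61 in glyI2, -0.18 in OE1 and -0.11 in OE5, against -0.087 to 0.000 for all genes. Altogether 6 aquaporins were called after MG in all 4 genotypes: PIP2-4, TIP2-3, TIP4-1 and NIP1-1 fell, and NIP2-1 and SIP1-2 rose. After NaCl NIP1-1 and SIP1-2 were called in all 4 genotypes, and PIP2-4 and PIP2-5 in 3. How many of all genes were called in all 4 genotypes was not counted, so no share stands beside these counts.

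**Figure D3:**
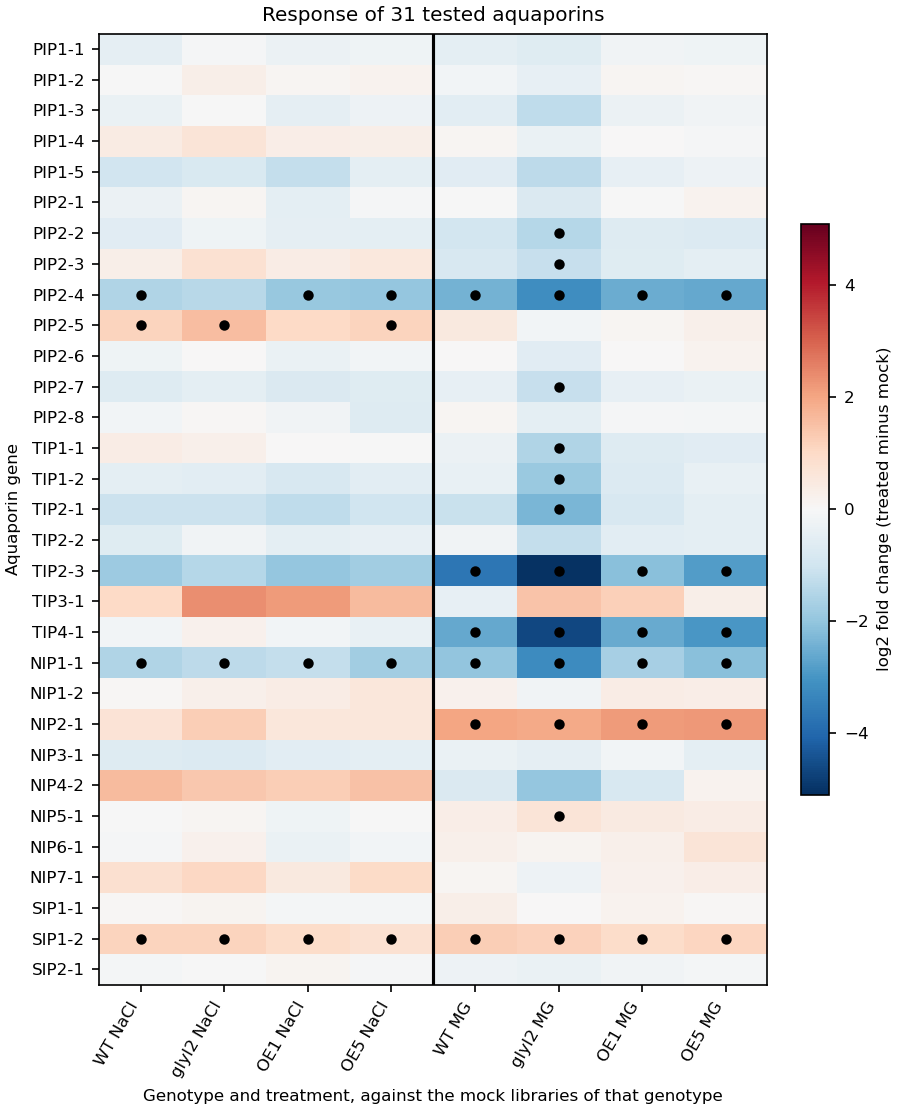
Fitted log2 fold changes of the 31 tested aquaporins (rows) after NaCl and MG in the 4 genotypes (columns), each against the mock libraries of that genotype. Dots mark an edgeR adjusted p under 0.05, and 6 rows carry a dot in all 4 MG columns.

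PIP2-4 (AT5G60660), a plasma membrane water channel known mainly from roots, fell after both treatments. In WT it was at 36.4, 38.9 and 27.3 CPM in mock, at 10.5, 17 and 8.23 after NaCl and at 5.90, 10.9 and 2.67 after MG. All treated libraries lay below all mock libraries. The log2 change was -1.53 ± 0.45 (SE, edgeR adjusted p = 0.0336) after NaCl and -2.41 ± 0.46 (adjusted p = 3.93e-04) after MG.

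The fall of PIP2-4 after MG was seen in the other genotypes too. The glyI2 libraries were at 64.5, 18.4 and 27.6 CPM in mock, 14.4, 20.4 and 7.24 after NaCl and 3.10, 5.08 and 4.17 after MG. The NaCl libraries overlapped the mock libraries and the MG libraries did not. In OE1 PIP2-4 ran from 31.8 to 50.4 CPM in mock, 7.61 to 14.5 after NaCl and 6.30 to 7.59 after MG, and in OE5 from 21.6 to 50.5, 7.29 to 10.6 and 3.54 to 6.62. After MG it fell by 3.16 on the log2 scale in glyI2, by 2.52 in OE1 and by 2.59 in OE5, with edgeR adjusted p of 7.37e-06, 2.45e-04 and 1.95e-04. After NaCl the log2 change was -1.40 in glyI2, with an adjusted p of 0.0533, and PIP2-4 fell by 1.95 in OE1 and by 1.98 in OE5. The adjusted p in glyI2 was 0.0183 with the replicate block and 0.0382 with DESeq2.

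Each of the NaCl calls on PIP2-4 was lost when some single library was left out. In WT the adjusted p was 0.119 without the low-CCA1 libraries, and 0.0536 to 0.178 without replicate 1, 2 or 3 of mock or replicate 1 or 3 of NaCl. It was 0.0541 and 0.0533 in OE1 without replicate 2 or 3 of NaCl. In OE5 it was 0.0707 without replicate 1 of mock and 0.0519 without replicate 1 of NaCl. After MG PIP2-4 kept its call in all 4 genotypes under each of the 12 alternatives per genotype.

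PIP2-5 (AT3G54820), together with PIP1-4 known as a PIP gene that is raised by drought, was higher after NaCl. Its WT libraries were at 12.8, 15.3 and 12.3 CPM in mock and at 20.5, 42.6 and 24.5 after NaCl, without overlap. Those of glyI2 were at 11.6, 14.3 and 11 CPM in mock and at 30.7, 55.5 and 25.7 after NaCl, also without overlap. It rose by 1.12 ± 0.32 log2 in WT, by 1.59 ± 0.32 in glyI2 and by 1.13 in OE5, with edgeR adjusted p of 0.0276, 1.71e-03 and 0.0304. In OE1, which ran from 14.8 to 23 CPM in mock and 28.3 to 42.5 after NaCl, the log2 change was 1.03 with an adjusted p of 0.0522, and 8.62e-03 with the replicate block and 0.0396 with DESeq2. OE5 ran from 11.4 to 18 and from 28.2 to 33.5 CPM.

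After MG PIP2-5 was at 12.4, 30.8 and 13.2 CPM in WT and at 9.78, 14.1 and 9.93 in glyI2, and both groups overlapped mock. Its log2 change after MG lay between -0.13 and 0.48 in the 4 genotypes, with no call. The NaCl call in WT was lost without replicate 1, 2 or 3 of mock or replicate 2 of NaCl, with adjusted p of 0.0518 to 0.212. In OE5 it was lost without replicate 1 or 2 of mock or any 1 of the NaCl replicates, with adjusted p of 0.0591 to 0.134, and was 0.0508 without the low-CCA1 libraries. In fits on the compared groups alone it was 0.0845 in glyI2 and 0.0637 in OE5.

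The 5 PIP1 genes, whose proteins act with PIP2 proteins in the plasma membrane, had no edgeR call in any of the 8 comparisons with mock, with 1 gene at an unadjusted p under 0.05 in glyI2 NaCl, 2 in glyI2 MG and 0 in the others. DESeq2 called 1, PIP1-3 in glyI2 MG. PIP1-4 (AT4G00430) had log2 changes of 0.30 to 0.65 after NaCl, above 0 in all 4 genotypes, and in glyI2 its adjusted p was 0.0491 with the replicate block. PIP1-5 had -1.20 to -0.50 after NaCl and -1.34 to -0.27 after MG, below 0 in all 4 genotypes each time. PIP1-1 and PIP1-3 were also below 0 in all 8 comparisons, and PIP1-2 lay between -0.42 and 0.29.

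In glyI2 the PIP1 calls after MG differed with and without the low-CCA1 libraries. PIP1-3 was at 1360, 641 and 301 CPM in glyI2 mock, the last being the low-CCA1 library, and at 361, 316 and 275 after MG. The groups overlapped, and the log2 change of -1.28 had an edgeR adjusted p of 0.0575, and 0.0391 with the replicate block and 0.0433 with DESeq2. Without the low-CCA1 libraries PIP1-3 fell by 1.63 with an adjusted p of 1.95e-03, and PIP1-1, PIP1-2 and PIP1-5 also passed, at log2 changes of -0.87, -0.71 and -1.66.

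Among the other PIP2 genes, 3 were called after MG in glyI2, where they fell, and none of the 6 other than PIP2-4 and PIP2-5 was called after NaCl by edgeR or DESeq2. PIP2-2 (AT2G37170) was at 443, 199 and 180 CPM in glyI2 mock and at 108, 117 and 77.9 after MG, without overlap. It fell by 1.44 ± 0.34 log2 (edgeR adjusted p = 1.79e-03). PIP2-7 (AT4G35100) was at 1260, 762 and 555 CPM in mock and at 413, 387 and 348 after MG, and fell by 1.17 ± 0.31 (adjusted p = 4.92e-03). PIP2-3 fell by 1.17 ± 0.41 (adjusted p = 0.0318). In WT the log2 changes of PIP2-2, PIP2-3 and PIP2-7 after MG had no call, and that of PIP2-2 was -0.92 with an adjusted p of 0.0899, against 8.51e-03 with the replicate block, 0.0370 without the low-CCA1 libraries and 0.0390 without replicate 2 of MG.

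PIP2-2 and PIP2-3 are neighbours with no protein-coding gene between them and have near-identical sequences, so reads may have been split between them and their separate values are uncertain. The PIP2-3 call in glyI2 was lost without replicate 1 or 2 of mock or any 1 of the MG replicates, with adjusted p of 0.0503 to 0.216, and was 0.0620 in a fit on the compared groups alone. That of PIP2-7 was lost without replicate 1 of mock, at 0.0687. Without the low-CCA1 libraries PIP2-1 also passed in glyI2, at a log2 change of -1.08 with an adjusted p of 0.0230, against -0.75 and 0.280 with all libraries. PIP2-6 and PIP2-8 had log2 changes between -0.67 and 0.17 over the 8 comparisons and no call.

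TIP2-3 (AT5G47450), an ammonia and water channel of the root vacuole, had the lowest log2 change of the family after MG in WT and glyI2. Wild-type libraries were at 27.2, 17.9 and 31.7 CPM in mock, at 7.05, 10.9 and 3.32 after NaCl and at 2.66, 2.29 and 1.10 after MG. All treated libraries lay below all mock libraries. It fell by 3.67 ± 0.74 log2 after MG (edgeR adjusted p = 7.10e-04), a 12.7-fold lower level. After NaCl the log2 change was -1.86 with an adjusted p of 0.0974, 9.63e-03 with the replicate block and 0.0250 in a fit on the compared groups alone.

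In glyI2 TIP2-3 was at 47.4, 12.9 and 6.24 CPM in mock and at 0.862, 0.703 and 0.441 after MG, without overlap. OE1 ran from 14.5 to 28 CPM in mock and 3.78 to 6.62 after MG, and OE5 from 7.35 to 35.2 and 0.741 to 4.45. TIP2-3 fell by 5.04 ± 0.81 log2 (adjusted p = 1.85e-05), by 2.15 in OE1 (adjusted p = 0.0433) and by 2.85 in OE5 (adjusted p = 7.60e-03). In OE1 the call was lost without replicate 1 or 2 of mock or any 1 of the MG replicates, with adjusted p of 0.0801 to 0.173, and was 0.0579 with no expression filter. In OE5 it was 0.0776 without replicate 1 of mock, 0.0560 without replicate 2 of MG and 0.0637 in a fit on the compared groups alone.

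TIP4-1 (AT2G25810), a vacuolar channel expressed mainly in roots, fell after MG and had no call after NaCl. In WT mock TIP4-1 was at 24.4, 25.9 and 15.7 CPM, with 19, 27.6 and 14 after NaCl and 3.14, 5.93 and 1.91 after MG. The glyI2 libraries held 38.3, 11.1 and 30.0 CPM in mock, 34.1, 40.0 and 18.1 after NaCl and 1.29, 1.13 and 0.721 after MG. In both genotypes the MG libraries lay below all others and the NaCl and mock libraries overlapped. OE1 ran from 16.9 to 40.1 CPM in mock and 3.72 to 6.73 after MG, and OE5 from 20.1 to 30.7 and 3.09 to 3.54.

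After MG TIP4-1 fell by 2.60 ± 0.45 log2 in WT, by 4.65 ± 0.50 in glyI2, by 2.57 in OE1 and by 2.98 in OE5. The edgeR adjusted p were 9.67e-05, 2.56e-08, 1.08e-04 and 1.99e-05. The level was 6.08-fold lower than mock in WT and 25.1-fold lower in glyI2. After NaCl the log2 change lay between -0.38 and 0.21, with no call by edgeR or DESeq2. TIP4-1 after MG kept its call in all 4 genotypes under each of the 12 alternatives per genotype.

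The 3 most abundant vacuolar genes fell after MG in glyI2. TIP1-2 was at 3970, 1940 and 2030 CPM in glyI2 mock and at 893, 591 and 679 after MG. TIP1-1 was at 1190, 805 and 1010 CPM in mock and at 354, 363 and 320 after MG. TIP2-1 was at 2950, 1060 and 947 CPM in mock and at 447, 185 and 336 after MG. For each of these genes all MG libraries lay below all mock libraries, and the first mock library was the highest of the 3.

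In that comparison TIP1-2 fell by 1.88 ± 0.36 log2, TIP1-1 by 1.53 ± 0.30 and TIP2-1 by 2.35 ± 0.55, with edgeR adjusted p of 1.75e-04, 2.51e-04 and 1.57e-03. These calls held under each of the 12 alternatives, although the difference from the WT response was not called for any of the 3. In WT the same genes were at 1430, 2290 and 1450 CPM (TIP1-2), 502, 1070 and 524 (TIP1-1) and 716, 758 and 815 (TIP2-1) after MG, with no call. In WT the TIP2-1 libraries did not overlap mock, which was at 1710, 1370 and 1900 CPM, and the log2 change of -1.12 had an adjusted p of 0.244, and 9.44e-03 in a fit on the compared groups alone.

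TIP2-2 had log2 changes of -1.22 to -0.19 after MG and -0.63 to -0.18 after NaCl. In glyI2 after MG its adjusted p was 0.0706, 0.0407 without the low-CCA1 libraries, 0.0344 without replicate 3 of mock and 0.0143 with the replicate block. TIP3-1, the seed vacuole channel, had log2 changes of 1.01 to 2.38 after NaCl at very low counts and no call, and in glyI2 its adjusted p was 0.0296 without the low-CCA1 libraries. Its glyI2 libraries were at 0.109, 0.134 and 0.116 CPM in mock and at 0.285, 1.67 and 0.104 after NaCl. The last is the low-CCA1 library, and replicate 2 of NaCl stood far above the rest. By group, 0 of 7 tested TIP genes were called after NaCl in each genotype by edgeR, with 1 to 4 at an unadjusted p under 0.05, and DESeq2 called 1, TIP2-3 in OE1. With the replicate block edgeR called TIP2-3 after NaCl in WT, OE1 and OE5, at adjusted p of 9.63e-03, 0.0138 and 0.0418. A fit on the compared groups alone called it in WT (0.0250) and OE1 (0.0236). After MG 2 of the 7 fell in WT, OE1 and OE5, beside 4.26%, 3.94% and 4.09% of all genes, and 5 of 7 in glyI2, beside 14.8%.

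The summed root markers moved in the direction of PIP2-4, TIP2-3, TIP4-1 and NIP1-1 after MG. Their mean was 137 CPM in WT mock and 45.2 in WT MG, 153 and 43.0 in glyI2, 157 and 50.5 in OE1, and 145 and 43.5 in OE5. Of the 18 root markers tested, 10 fell after MG in WT, glyI2 and OE1 each and 12 in OE5. Of all genes 4.26% fell after MG in WT, 14.8% in glyI2, 3.94% in OE1 and 4.09% in OE5. None of the markers was at 0 in all libraries of a group. The sum was also lower after NaCl, beside the falls of PIP2-4 and NIP1-1, at a mean of 94.5 CPM in WT, 108 in glyI2, 94.8 in OE1 and 99.7 in OE5. After NaCl 0 root markers fell in WT, OE1 and OE5 and 2 in glyI2 by edgeR, with 5, 7, 3 and 8 at an unadjusted p under 0.05 in either direction. Of all genes 2.69% fell after NaCl in WT, 2.59% in glyI2, 2.35% in OE1 and 2.23% in OE5. The summed shoot markers ran from 210 to 233 CPM in glyI2 mock and 154 to 171 after MG. The part of these markers in the aquaporin values was not tested. In RNA of whole seedlings, fewer cells of a type and less RNA per cell cannot be told apart.

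**Figure D4:**
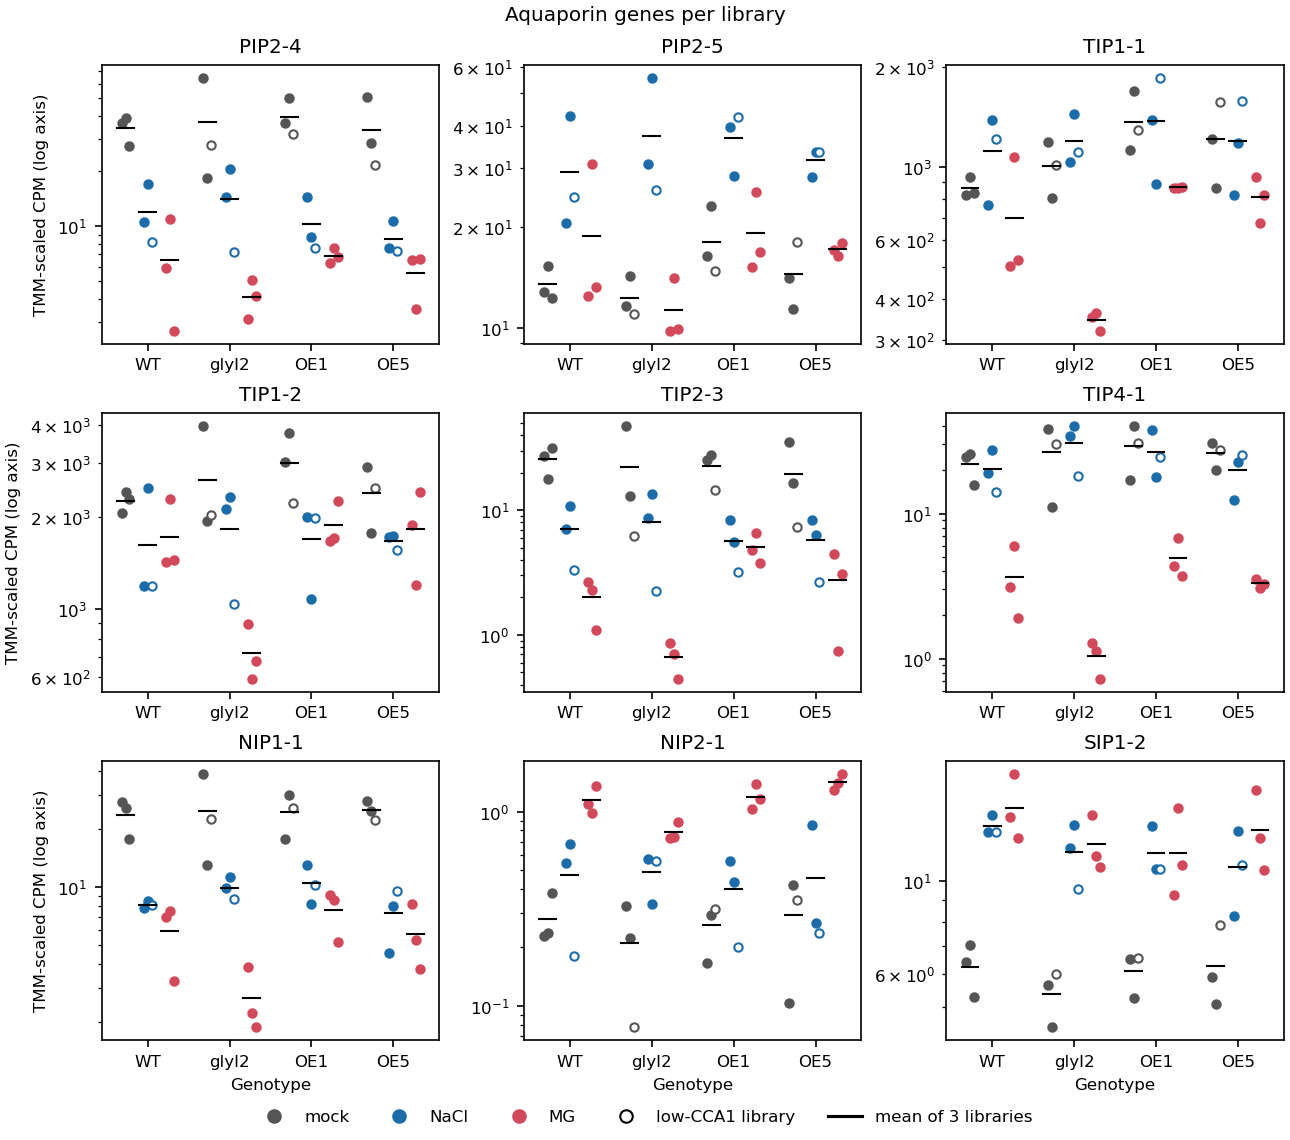
TMM-scaled CPM on log axes of 9 aquaporins in all 36 libraries, by genotype and treatment (colour), with group means (bars) and the 7 low-CCA1 libraries as open points. TIP4-1 separates MG from mock and NaCl in each genotype, and SIP1-2 separates both treatments from mock.

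NIP1-1 (AT4G19030), a plasma membrane channel through which arsenite enters roots, fell after both treatments in all 4 genotypes. In WT NIP1-1 was at 27.6, 25.8 and 17.7 CPM in mock, 7.79, 8.54 and 8.05 after NaCl and 6.99, 7.54 and 3.27 after MG. In glyI2 NIP1-1 was at 38.6, 13 and 22.7 CPM in mock, 9.87, 11.3 and 8.67 after NaCl and 3.88, 2.23 and 1.88 after MG. No treated library of either genotype reached a mock library. OE1 ran from 17.9 to 30 CPM in mock, 8.21 to 13 after NaCl and 5.18 to 9.08 after MG, and OE5 from 22.4 to 27.9, 4.56 to 9.58 and 3.78 to 8.15.

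After NaCl NIP1-1 fell by 1.54 ± 0.36 log2 in WT (edgeR adjusted p = 6.37e-03), by 1.32 in glyI2 (adjusted p = 0.0197), by 1.23 in OE1 (adjusted p = 0.0384) and by 1.76 in OE5 (adjusted p = 2.68e-03). After MG it fell by 2.00 ± 0.37 in WT (adjusted p = 1.97e-04), by 3.22 ± 0.39 in glyI2 (adjusted p = 1.66e-07), by 1.69 in OE1 and by 2.12 in OE5. The MG calls held under each of the 12 alternatives per genotype. After NaCl the adjusted p without the low-CCA1 libraries was 0.0477 in WT, 0.125 in glyI2, 0.153 in OE1 and 0.0172 in OE5. In glyI2 it was 0.0529 to 0.166 without replicate 1 of mock or any 1 of the NaCl replicates, and 0.238 in a fit on the compared groups alone. In OE1 it was 0.0551 to 0.183 without replicate 2 or 3 of mock or any 1 of the NaCl replicates.

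NIP2-1 (AT2G34390), a lactic acid channel known from roots short of oxygen, rose after MG from a level near the floor. Wild-type NIP2-1 was at 0.229, 0.236 and 0.380 CPM in mock and at 1.09, 0.989 and 1.36 after MG. The glyI2 libraries were at 0.328, 0.223 and 0.0775 CPM in mock and at 0.733, 0.742 and 0.881 after MG. The groups did not overlap in either genotype. OE1 ran from 0.167 to 0.317 CPM in mock and 1.03 to 1.39 after MG, and OE5 from 0.104 to 0.420 and 1.29 to 1.56. NIP2-1 rose by 2.00 ± 0.49 log2 in WT, 1.94 in glyI2, 2.16 in OE1 and 2.22 in OE5, with edgeR adjusted p of 4.72e-03, 5.08e-03, 3.33e-03 and 1.62e-03. These calls held under each alternative, although no library had over 34 counts.

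The boric acid channel NIP5-1 (AT4G10380), which takes boron into roots, was at 12.8, 11.5 and 12.5 CPM in glyI2 mock and at 23.5, 19.9 and 15.3 after MG, without overlap. It rose by 0.67 ± 0.20 log2 there (edgeR adjusted p = 0.0128), a call lost without replicate 1 of MG, at 0.0882. In the other genotypes its log2 change after MG was at least 0.35, with no call. NIP6-1, which passes boron to young leaves, had log2 changes of 0.12 to 0.67 after MG, also with no call.

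The remaining NIP genes had no call against mock. NIP1-2, known for the uptake of aluminium malate, had log2 changes of 0.05 to 0.57 after NaCl and -0.17 to 0.38 after MG. NIP3-1 lay below 0 in all 8 comparisons, from -0.71 to -0.12. NIP4-2, whose neighbour NIP4-1 had no counts, had log2 changes of 1.26 to 1.62 after NaCl and -1.98 to 0.16 after MG, and its adjusted p in WT NaCl was 0.0667, against 0.0425 with the replicate block. In glyI2 MG it was 0.0291 without replicate 1 of mock. NIP7-1 had log2 changes of 0.49 to 1.06 after NaCl.

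SIP1-2 (AT5G18290), a water channel of the endoplasmic reticulum, rose after both treatments in all 4 genotypes. In WT SIP1-2 was at 6.40, 7.03 and 5.28 CPM in mock, 13.1, 14.4 and 13.1 after NaCl and 14.2, 18 and 12.7 after MG. In glyI2 SIP1-2 was at 5.64, 4.47 and 6.01 CPM in mock, 12, 13.6 and 9.57 after NaCl and 14.4, 11.5 and 10.8 after MG. No treated library was as low as a mock library in these genotypes. OE1 ran from 5.24 to 6.54 CPM in mock, 10.7 to 13.5 after NaCl and 9.24 to 14.9 after MG, and OE5 from 5.08 to 7.83, 8.27 to 13.2 and 10.6 to 16.5.

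After NaCl SIP1-2 rose by 1.12 ± 0.22 log2 in WT, 1.12 in glyI2, 0.93 in OE1 and 0.78 in OE5, with edgeR adjusted p of 1.48e-03, 1.35e-03, 9.16e-03 and 0.0298. After MG it rose by 1.26 ± 0.22 in WT, 1.18 in glyI2, 0.93 in OE1 and 1.08 in OE5, with adjusted p of 1.08e-04, 1.20e-04, 3.72e-03 and 8.08e-04. The NaCl call in OE5 was lost without replicate 1 or 2 of mock or replicate 2 or 3 of NaCl, with adjusted p of 0.0536 to 0.153. In OE1 it was 0.0620 without replicate 2 of mock and 0.0581 without replicate 1 of NaCl, and after MG 0.0551 without replicate 2 of MG. In fits on the compared groups alone the adjusted p was 0.0962 in glyI2 NaCl, 0.0830 in OE1 NaCl, 0.310 in OE5 NaCl and 0.0521 in OE5 MG.

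SIP1-1 and SIP2-1 had no call by edgeR or DESeq2, and none at an unadjusted p under 0.05. SIP1-1 had log2 changes of -0.10 to 0.30 over the 8 comparisons, and SIP2-1 had -0.08 to 0.13 after NaCl and -0.32 to -0.11 after MG.

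The difference between the MG responses of glyI2 and WT was tested for each aquaporin, and no aquaporin passed in edgeR, with 4 at an unadjusted p under 0.05. Over all genes the difference was called for 3.97%, and for 5.21% by DESeq2 and 6.97% with the replicate block. DESeq2 and the replicate block each called 1 aquaporin, TIP4-1, as did edgeR without replicate 3 of WT MG, at an adjusted p of 0.0323, or without replicate 2 of glyI2 mock, at 0.0189. The estimate for TIP4-1 was -2.05 ± 0.63 log2 (adjusted p = 0.0648), for TIP1-2 -1.48 ± 0.49 (0.0916), for TIP1-1 -1.23 ± 0.42 (0.103) and for NIP1-1 -1.21 ± 0.51 (0.205). The estimate lay below 0 for 29 of the 31 tested aquaporins, with a median of -0.59, against -0.088 for all genes. The share of all genes below 0 was not counted. The aquaporins were measured in the same libraries, so their signs are not independent of each other. The exceptions were TIP3-1 at 1.88 ± 1.32 and NIP5-1 at 0.32 ± 0.29. Over the 18 tested root markers the median was -0.01, with 9 below 0. The part of root and shoot RNA in these differences was not tested.

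For NIP2-1 and SIP1-2 the estimates were -0.06 ± 0.85 and -0.08 ± 0.31, the SE of NIP2-1 being the wider. The other 5 differences in response from WT had no aquaporin called by edgeR or DESeq2 and none at an unadjusted p under 0.05. For NaCl the calls over all genes were 0.0% in glyI2, 0.0% in OE1 and 0.0% in OE5. For MG they were 0.00482% in OE1 and 0.00482% in OE5. The estimates over the aquaporins had medians of 0.23 for glyI2 NaCl, -0.10 and 0.01 for OE1 and OE5 NaCl, and 0.09 and 0.17 for OE1 and OE5 MG.

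**Figure D5:**
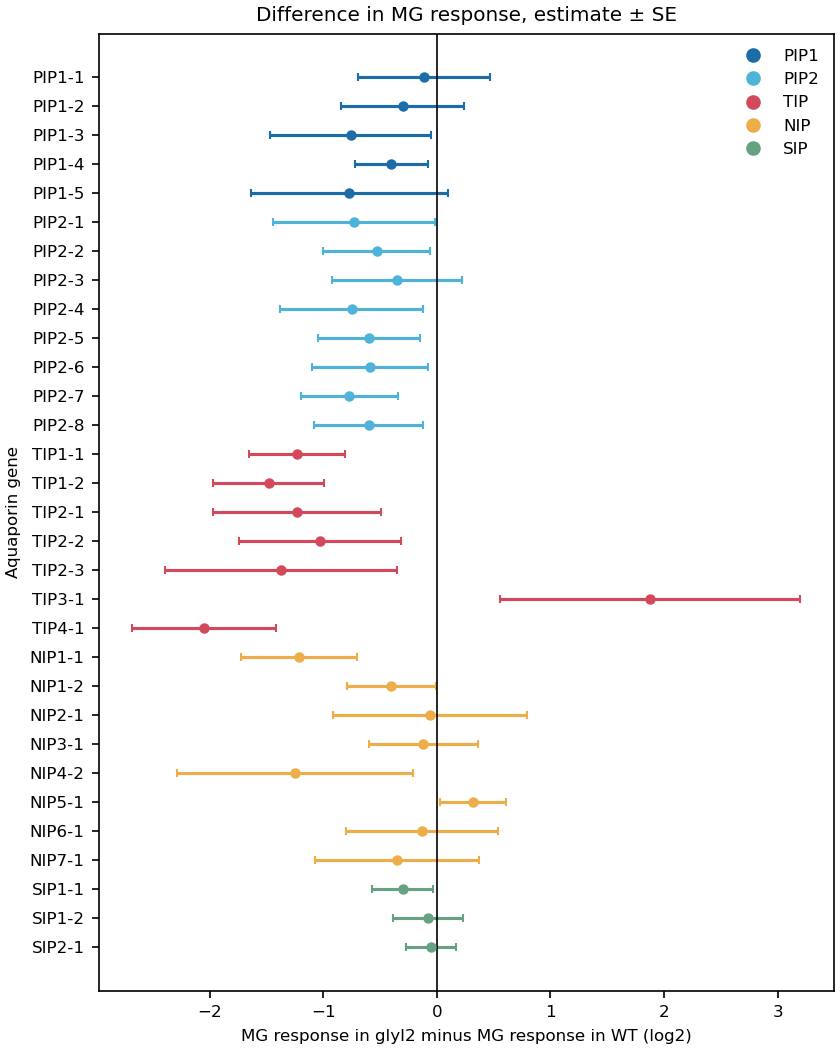
MG response in glyI2 minus MG response in WT, as log2 estimates with SE (points and bars), for the 31 tested aquaporins, coloured by subfamily. TIP4-1 lies farthest below 0, at -2.05, and TIP3-1 and NIP5-1 lie above 0.

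Under mock no aquaporin differed by the call between a line and WT. All genes called made up 0.0434% in glyI2, 0.0530% in OE1 and 0.0386% in OE5. At an unadjusted p under 0.05 edgeR gave 0, 1 and 0 aquaporins, the 1 being TIP1-1 at a log2 difference of 0.67 in OE1 with an adjusted p of 0.528, and DESeq2 called 0 in each. The log2 differences ran from -0.96 to 0.41 in glyI2, from -1.75 to 0.67 in OE1 and from -0.95 to 0.49 in OE5.

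Set directly against NaCl, MG lowered TIP4-1 in every genotype. In WT 0 of 31 aquaporins were higher after MG than after NaCl and 2 were lower, TIP4-1 and NIP4-2, beside 6.11% and 5.6% of all genes. There the count was 5 with the replicate block or without replicate 2 of MG, and 4 without the low-CCA1 libraries. Of all genes 16.1% were called with the block and 11.3% without the low-CCA1 libraries, against 11.7% without either change. TIP4-1 was lower by -2.48 ± 0.45 log2 in WT (edgeR adjusted p = 2.15e-04), -4.87 ± 0.51 in glyI2 (1.47e-08), -2.44 in OE1 (2.43e-04) and -2.61 in OE5 (1.49e-04). In OE1 2 were higher, NIP2-1 and NIP5-1, and 3 lower, PIP2-5, TIP4-1 and NIP4-2, beside 6.95% and 5.68%. In OE5 NIP2-1 was higher and TIP4-1 lower, beside 5.18% and 5.14%.

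In glyI2 1 aquaporin was higher after MG than after NaCl and 12 were lower, beside 15.0% and 16.3% of all genes. The median log2 difference of the aquaporins was -0.93, against -0.023 for all genes. NIP5-1 was the higher gene. PIP1-4, PIP2-2, PIP2-3, PIP2-4, PIP2-5, TIP1-1, TIP1-2, TIP2-3, TIP4-1, NIP1-1, NIP4-2 and NIP7-1 were lower. TIP1-1 was at 1030, 1440 and 1110 CPM after NaCl and at 354, 363 and 320 after MG, which do not overlap, at a log2 difference of -1.79 ± 0.30 (adjusted p = 4.22e-05). PIP2-3 differed by -1.96 and PIP2-5 by -1.72, with adjusted p of 6.06e-04 and 1.30e-04. Without the low-CCA1 libraries 21 aquaporins were lower and 0 higher, and 12 of the 13 calls were kept. Of all genes 39.7% were called there in either direction, against 31.3% with all libraries.

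Some of the smaller MG against NaCl calls were lost when a single library was left out. In glyI2 NIP7-1 was lost without replicate 1 or 2 of NaCl or any 1 of the MG replicates, with adjusted p of 0.0527 to 0.156. NIP5-1 was lost without any 1 library of NaCl or replicate 1 or 2 of MG, at 0.0501 to 0.174, and PIP2-2 without replicate 3 of MG, at 0.0584. In OE1 PIP2-5, NIP2-1, NIP4-2 and NIP5-1 were each lost without some single library, with adjusted p up to 0.183, 0.130, 0.127 and 0.210, the libraries being replicates 1 and 3 of both groups for PIP2-5, replicates 2 and 3 of both for NIP2-1, replicates 2 and 3 of NaCl and 1 and 2 of MG for NIP4-2, and replicates 1 and 3 of NaCl and 2 of MG for NIP5-1. Without the low-CCA1 libraries the OE1 calls of PIP2-5, NIP2-1 and NIP4-2 were lost, at adjusted p of 0.111, 0.0580 and 0.0542, and PIP2-3 was called, at 0.0442. In OE5 NIP2-1 was lost without replicate 2 or 3 of NaCl or replicate 3 of MG, at 0.0608 to 0.102. Fits on the compared groups alone lost PIP1-4, NIP7-1 and NIP5-1 in glyI2, at edgeR adjusted p of 0.0505, 0.0526 and 0.0901. They also lost NIP5-1 in OE1 (0.0704) and NIP2-1 in OE5 (0.124). PIP2-3 was gained there in OE1, and PIP2-3 and PIP2-5 in OE5. With RLE scaling or no expression filter PIP2-5 was lost in OE1.

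Genes that act on aquaporin proteins were counted as a list of 10, all tested. TSPO, a membrane protein that binds PIP2-7 and carries it to autophagic breakdown, rose after NaCl in all 4 genotypes and was the 1 call of the list in each, beside 4.43% of all genes rising in WT, 4.45% in glyI2, 2.98% in OE1 and 3.24% in OE5. It was at 0.836 ± 0.112 CPM in WT mock and 20.0 ± 11.5 after NaCl, and at 0.757 ± 0.491 and 47.2 ± 44.0 in glyI2 (SD, n = 3), with edgeR adjusted p of 0.0308 and 6.34e-03. Its groups did not overlap after NaCl in any genotype. The TSPO call was lost in WT without replicate 1, 2 or 3 of mock or replicate 2 of NaCl, in OE1 without replicate 1 or 3 of mock, and in OE5 without replicate 2 or 3 of mock or replicate 1 of NaCl, with adjusted p of at most 0.125. TSPO had an adjusted p of 0.0526 in OE1 without the low-CCA1 libraries and 0.0514 in glyI2 in a fit on the compared groups alone. PIP2-7 itself had log2 changes of -0.73 to -0.51 after NaCl and no call.

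After MG 3 of the 10 regulators rose in WT, 3 rose and 1 fell in glyI2, and 1 rose in OE5. Of all genes 6.42% rose in WT, 14.4% rose and 14.8% fell in glyI2, and 4.74% rose in OE5. In OE1, where 5.85% of all genes rose, edgeR called 0, with 5 at an unadjusted p under 0.05, and DESeq2 called 1, TSPO. SYP121, a syntaxin that delivers PIP2-7 to the plasma membrane, rose by 1.57 log2 in glyI2 (edgeR adjusted p = 2.38e-04) and by 1.15 in WT (0.0108), where the call was lost without replicate 3 of mock or replicate 2 of MG, at adjusted p of 0.0578 and 0.0996. BAK1, a receptor kinase that phosphorylates PIP2-1, rose by 0.71 in WT and 0.77 in glyI2 under each alternative. It rose by 0.57 in OE5, a call lost without replicate 2 or 3 of mock or replicate 1 or 3 of MG, and its adjusted p was 0.0857 without the low-CCA1 libraries and 0.193 in a fit on the compared groups alone. The OE5 call was also lost with RLE scaling. SIRK1, a receptor kinase that phosphorylates PIP proteins, fell by 0.95 in glyI2 (adjusted p = 1.25e-04). Its partner QSK1 rose by 1.04 in WT, a call lost without replicate 2 or 3 of mock or replicate 2 of MG, with adjusted p up to 0.158. TSPO was the other gene that rose in glyI2, with overlapping groups, and was lost without any 1 mock replicate or replicate 2 of MG, with adjusted p up to 0.905. Without the low-CCA1 libraries the adjusted p of TSPO there was 0.0826. A fit on the compared groups alone lost the call too.

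Carriers of 2 solutes that aquaporins also pass were counted beside them. Of the 7 boron exporters 6 were tested, and BOR3 rose after NaCl in all 4 genotypes, by 0.50 to 0.58 log2. Of all genes 4.43% rose after NaCl in WT, 4.45% in glyI2, 2.98% in OE1 and 3.24% in OE5. In a fit on the compared groups alone the BOR3 call was lost in all 4, at adjusted p of 0.0731 in WT, 0.271 in glyI2, 0.322 in OE1 and 0.355 in OE5. It was also lost without replicate 2 of mock or of NaCl in glyI2, replicate 1 of mock or replicate 1 or 2 of NaCl in OE1, and replicate 1 of mock or of NaCl in OE5. By edgeR OE1 had 1 more call after NaCl, BOR2 at 1.61, lost without replicate 1 or 2 of mock or 2 or 3 of NaCl, with adjusted p up to 0.130. DESeq2 also called rises of BOR2 in OE5 and of BOR1 in WT after NaCl.

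After MG 1 of the 6 boron exporters fell in WT and in OE5, 2 in OE1 and 3 in glyI2, beside 4.26%, 4.09%, 3.94% and 14.8% of all genes, and none rose by edgeR or DESeq2. BOR2, a root boron exporter, fell in all 4 genotypes, by 1.35 in WT, 1.71 in glyI2, 1.58 in OE1 and 1.45 in OE5, with edgeR adjusted p of 0.0375, 3.03e-03, 0.0162 and 0.0287. In glyI2 the BOR2 call held under each alternative. It was lost without any 1 mock replicate or replicate 1 or 2 of MG in WT, replicate 3 of mock or 2 or 3 of MG in OE1, and replicate 2 of mock or any 1 MG replicate in OE5, with adjusted p up to 0.205. Without the low-CCA1 libraries BOR2 had an adjusted p of 0.152 in OE1 and BOR7 one of 0.480 in glyI2. BOR1, which loads boron into the xylem, fell by 1.40 in glyI2 under each alternative, and by 0.77 in OE1, a call lost without replicate 3 of mock or replicate 1 of MG and at an adjusted p of 0.0625 in a fit on the compared groups alone. DESeq2 also called a fall of BOR1 in OE5. BOR7 was the other call in glyI2, lost without replicate 3 of mock or any 1 MG replicate, with adjusted p up to 0.497. This call was also lost with no expression filter.

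Of the 6 ammonium transporters 5 were tested, and none was called after NaCl in any genotype by edgeR or DESeq2, with 1, 1, 0 and 0 at an unadjusted edgeR p under 0.05 in WT, glyI2, OE1 and OE5. AMT1-3, a root ammonium transporter, was at 39.7 ± 18.2 CPM in glyI2 mock and 6.43 ± 2.52 after MG, without overlap, and fell by 2.62 log2 (edgeR adjusted p = 1.03e-03). AMT2-1 rose by 1.45 there, and both calls held under each alternative. AMT1-1 rose by 1.33 in WT, a call lost without replicate 3 of mock or 2 of MG, and by 1.16 in OE1, lost without replicate 1 or 3 of mock or 2 of MG. In OE1 the adjusted p of AMT1-1 was 0.194 without the low-CCA1 libraries. There its call was also lost with RLE scaling and in a fit on the compared groups alone. Beside these calls, 6.42% of all genes rose in WT and 5.85% in OE1, and in glyI2 14.4% rose and 14.8% fell. AMT2-1 rose by 1.12 in WT, lost without any 1 mock replicate or replicate 1 or 2 of MG, with adjusted p up to 0.226. RLE scaling lost this call as well. OE5 had no call after MG by either tool, with 2 at an unadjusted edgeR p under 0.05.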

How the data were processed

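The 36 RNA libraries were used. The 3 chromatin samples are not analysed here. Each deposited file gives, per gene, a whole-number count of reads and an FPKM value, both made by the authors and named so per the file headers. The tools HISAT2 2.0.4, HTSeq, SICER and ChIPseeker and the build TAIR10 are named, with no role stated, per the submitters' processing notes. The strand setting of the counting is not given in these sources, so overlapping genes, antisense partners and close paralogs are uncertain.

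The test was edgeR 4.0.16's quasi-likelihood test on the counts (R 4.3.3), with TMM scaling, the default expression filter and a fit over all 36 libraries with 12 groups and no replicate term. The Benjamini-Hochberg adjustment ran over all 20748 genes tested, and a call needs an adjusted p under 0.05. SE were derived from the F statistic, and CPM are TMM-scaled. Family shares used the authors' FPKM and an exact permutation test over libraries. The design gave 21 comparisons. Any of the 35 aquaporins could be named, and other genes only from lists. The members and the lists were chosen with earlier results of these data known. All 35 identifiers matched a RefSeq gene table of assembly TAIR10.1, used for names and neighbours only, so no coordinates are given, and no sequences are given.

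Labels name no separate cultures or batches, so a p-value covers only how these libraries scatter, possibly for technical reasons. Depth was 21024878 to 22383131 counts per library. Pairing by replicate number was examined through the correlation of deviations from the group means of same-numbered libraries: all 3 correlations passed 0.1 in glyI2 MG (0.511, 0.217 and 0.193), OE5 NaCl (0.386, 0.131 and 0.734) and OE5 MG (0.278, 0.555 and 0.197) of 11 comparisons checked. The edgeR step was tested on simulated data. Alternatives were RLE scaling, no expression filter, the replicate block, DESeq2 1.42.0, the compared groups alone, leaving out 7 libraries with low CCA1, and leaving out each library in turn.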

Additional observations from a re-analysis of the deposited data

How the results depend on the processing

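Of 45 calls on aquaporins against mock, 27 held under every alternative run, and of 22 calls of MG against NaCl, 13 did. No aquaporin changed direction where it was called. Counts of called aquaporins moved as follows. With the replicate block glyI2 NaCl went from 3 to 5, OE1 NaCl from 3 to 5, WT MG against NaCl from 2 to 5, OE5 MG against NaCl from 2 to 5, and the glyI2 difference in MG response from 0 to 1. The share of all genes called went, in this order, from 7.05% to 10.7% and from 5.33% to 8.61%. For the last 3 it went from 11.7% to 16.1%, from 10.3% to 14.2% and from 3.97% to 6.97%. All 3 correlations of same-numbered libraries passed 0.1 in glyI2 MG, OE5 NaCl and OE5 MG, though the labels name no pairs. There the block count was 15 for glyI2 MG (adding PIP1-3 and TIP2-2), 5 for OE5 NaCl (adding TIP2-3) and 6 for OE5 MG. Of all genes the block called 35.1%, 8.73% and 11.1% there, against 29.2%, 5.48% and 8.82% without it. DESeq2 gave 5 in OE1 NaCl and 1 for the glyI2 difference in MG response. It called 6.24% and 5.21% of all genes there, against 5.33% and 3.97% by edgeR. Fits on the compared groups alone gave 0 in glyI2 NaCl, 2 in OE5 NaCl and 1 in WT MG against NaCl. Of all genes these fits called 1.1%, 1.5% and 6.06%, against 7.05%, 5.48% and 11.7% with all groups. Without the 7 low-CCA1 libraries the counts were 4 in WT, 21 in glyI2 and 3 in OE1 for MG against NaCl, and 19 in glyI2 MG. Of all genes 11.3%, 39.7%, 13.0% and 30.2% were called there, against 11.7%, 31.3%, 12.6% and 29.2% with all libraries. Leaving out a library each time gave 2 to 3 in WT NaCl, 1 to 3 in OE1 NaCl, 1 to 4 in OE5 NaCl, 0 to 1 for the glyI2 difference in MG response, and 2 to 5 in WT, 1 to 3 in OE1 and 1 to 2 in OE5 for MG against NaCl. The shares of all genes in the fits that leave out 1 library are not given. The cause of these moves was not tested. With 3 libraries a group, family shares cannot reach a permutation p under 0.1, and genes under 40 counts per library are measured with large counting error.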
